A study of Homo sapiens with 12 samples.

Results

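Carbonic anhydrases and the ion transporters of the colonic epithelium were followed in HT-29, an established human colon adenocarcinoma cell line that the labels give as APC mutant. The 9 members, taken by gene symbol from a table of 25528 rows, were the carbonic anhydrase genes CA2, CA8, CA12 and CA13, the anion exchanger genes SLC26A3, SLC26A6 and SLC4A2, the chloride channel gene CFTR and the cotransporter gene SLC12A2. RNA-seq had been done on 12 libraries in 4 groups of 3, all of the same APC-mutant line infected with lentivirus. In the first arm the virus carried an open reading frame for GFP (control) or for CTNNB1, which encodes beta-catenin, and cells were taken 2 days after infection. In the second arm it carried the control hairpin shNT1 or a hairpin against APC (shAPC), both induced with 2 µM doxycycline, and cells were taken 1 day after induction. The arms differ in vector, collection day and doxycycline, so a level in 1 arm set against a level in the other cannot be told apart from these differences. The labels do not say whether the 3 libraries of a group came from separate cultures, so p-values measure only the spread between these libraries.

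Carbonic anhydrases interconvert carbon dioxide and bicarbonate, and in the colon they feed the proton and bicarbonate exchange by which surface cells absorb salt. Absorbing surface cells exchange chloride for bicarbonate at the apical membrane, while crypt cells load chloride through a basolateral cotransporter and release it through an apical channel. Beta-catenin, held down by a complex that contains APC, maintains the crypt programme, and surface absorptive cells form as that signal falls. The comparisons ask how forced CTNNB1 expression or APC knockdown changed the RNA level of these genes.

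As a check of the labels, the APC level was 5.99 ± 0.56 TPM with shAPC, against 16.4 ± 0.80 TPM with shNT1 (SD, n = 3 each). The CTNNB1 gene itself stood at 160 ± 4.2 TPM under its own construct and 146 ± 2.9 TPM under GFP. That log2 fold change of 0.13 missed the threshold (limma adjusted p = 0.059), and the table does not separate construct from endogenous RNA. AXIN2, a direct target of beta-catenin, reached 81.6 ± 1.5 TPM with CTNNB1 (GFP 39.2 ± 1.9) and 92.1 ± 3.9 TPM with shAPC (shNT1 29.9 ± 1.8), log2 fold changes of 1.04 and 1.59 (limma adjusted p = 3.0e-06 and 3.5e-07). TPM, a relative transcript abundance, is scaled for transcript length and to the same total in every library, so it keeps no sequencing depth and the depth is unknown. Between 14756 and 16186 genes were above 0 per library. Of 9 colonic epithelial markers, 7 averaged at least 1 TPM over the 12 libraries. The transcription factor genes CDX1 and CDX2, which mark intestinal identity, did not, and CDX2 averaged 0.26 TPM in GFP, 0.50 in CTNNB1, 0.76 in shNT1 and 0.59 in shAPC. The 4 fibroblast markers summed to between 0.63 and 1.60 TPM and the 4 endothelial markers to between 0.10 and 0.48 TPM in any library. Of 4 leukocyte markers LYZ alone passed the filter. This gene for lysozyme, which Paneth cells of the intestine also express, was at 6466 to 6553 TPM in GFP, 6782 to 7718 in CTNNB1, 6787 to 7084 in shNT1 and 7278 to 8019 in shAPC. In bulk RNA, fewer cells of a kind and less RNA per cell cannot be told apart.

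Promoter windows of 300 bases (250 before to 50 after the start site, RefSeq, GRCh38.p14) were found for 6 of the 9 members, all but CA2, CA8 and CA13. SLC4A2 had 4 windows and SLC26A6 had 2. They were searched on both strands for CTTTGAT and CTTTGAA, words bound by the TCF/LEF partners of beta-catenin, and for TTTATG, a word bound by CDX factors. At least 1 of the TCF/LEF words occurs in 6.86% of 35116 such windows and the CDX word in 10.6%. The windows below are those of the member with a window that fell in both arms (CA12, chr15:63381797-63382096, minus strand), of the member that rose in the CTNNB1 arm (SLC12A2, chr5:128083516-128083815, plus strand) and of the only member whose window holds a TCF/LEF word (SLC26A3, chr7:107803174-107803473, minus strand). The last 2 were chosen after their values had been seen. Capitals mark matched words.
CA12: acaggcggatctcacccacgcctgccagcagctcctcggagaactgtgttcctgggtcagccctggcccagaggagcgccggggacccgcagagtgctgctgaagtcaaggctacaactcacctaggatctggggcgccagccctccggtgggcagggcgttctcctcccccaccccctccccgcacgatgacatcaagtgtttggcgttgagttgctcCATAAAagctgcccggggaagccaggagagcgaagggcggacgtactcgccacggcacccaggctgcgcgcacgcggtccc
SLC12A2: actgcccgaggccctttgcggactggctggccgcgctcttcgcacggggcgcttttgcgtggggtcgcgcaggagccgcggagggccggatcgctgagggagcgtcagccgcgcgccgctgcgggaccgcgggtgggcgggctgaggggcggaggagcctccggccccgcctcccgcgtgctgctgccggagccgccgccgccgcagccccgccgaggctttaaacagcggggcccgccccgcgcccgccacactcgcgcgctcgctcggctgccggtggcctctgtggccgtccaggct
SLC26A3: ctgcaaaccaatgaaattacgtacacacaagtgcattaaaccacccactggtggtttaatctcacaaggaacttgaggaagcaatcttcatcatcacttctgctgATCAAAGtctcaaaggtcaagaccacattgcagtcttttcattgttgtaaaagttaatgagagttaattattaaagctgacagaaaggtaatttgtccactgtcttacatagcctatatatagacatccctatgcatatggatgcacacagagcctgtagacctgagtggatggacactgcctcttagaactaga
The CA12 window holds a CDX word on the opposite strand at position -31, counted from the start site as 0, and no TCF/LEF word. A CDX word also lies in window 1 of SLC4A2, not printed here, on the gene's own strand at position 2. Neither word set occurs in the SLC12A2 window, 78.7% of whose bases are G or C. In the SLC26A3 window, 39.7% G or C, the word CTTTGAT lies on the opposite strand at position -145. These matches describe letters only, and binding was not measured.

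The members spanned a wide range of levels, and the genes of chloride secretion were the most abundant. SLC12A2 averaged 876 TPM over the 12 libraries, CFTR 108, SLC4A2 91.9, CA12 77.3, CA2 39.4, SLC26A6 7.94 and CA13 7.48 TPM. CA8 averaged 0.072 TPM. SLC26A3, the chloride/bicarbonate exchanger that is a hallmark of mature surface colonocytes, was above 0 in 1 of 12 libraries, at 0.0331 TPM in shNT1 replicate 2. CA8 and SLC26A3 fell below the filter of a mean of 1 TPM, which left 7 of the 9 members to be tested.

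**Figure D1:**
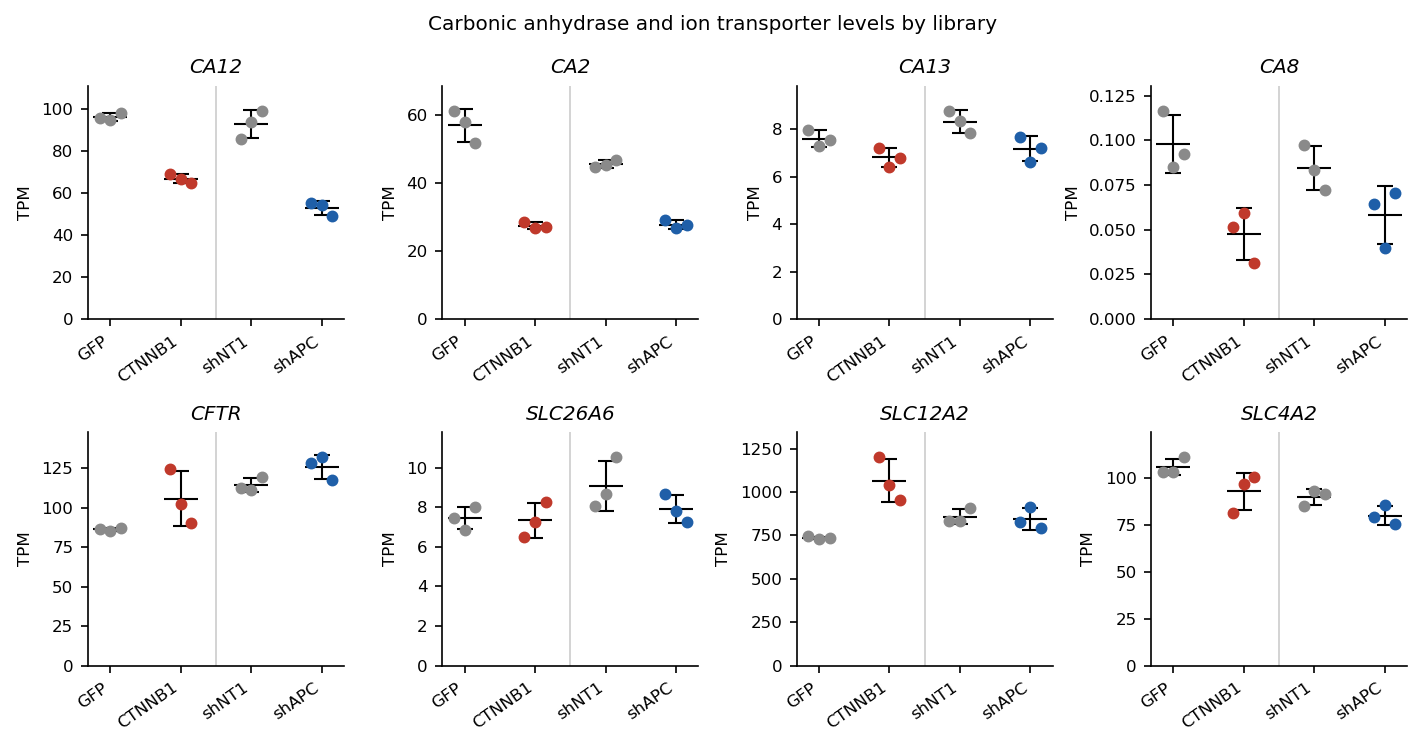
TPM (linear axis from 0) of 8 members in each library, with 1 point per library, a dash for the group mean and whiskers for 1 SD (n = 3), the vertical line separating the arms and SLC26A3 being left out because it was above 0 in 1 of 12 libraries. Both perturbed groups lie below their controls for CA2 and CA12, while SLC12A2 stands highest in the CTNNB1 group, between 954 and 1199 TPM.

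In the CTNNB1 arm CA2 and CA12 fell and SLC12A2 rose, and in the shAPC arm CA2 and CA12 fell again. Genes were called at a limma adjusted p under 0.05, adjusted by Benjamini-Hochberg over all genes tested. In the CTNNB1 arm 3 of 7 members were called, 1 higher and 2 lower, against 23.5% of 11624 genes (16.3% higher and 7.16% lower). In the shAPC arm 2 of 7 were called, both lower, against 22.1% of 11834 genes (7.24% higher and 14.9% lower), so the share of members called, 28.6%, is near that of all genes. Under median-ratio scaling the calls over all genes split differently, with 46.2% of them higher in place of 69.5% in the CTNNB1 arm and 44.3% in place of 32.8% in the shAPC arm. The median log2 fold change of the 7 members was -0.14 in the CTNNB1 arm and -0.17 in the shAPC arm, beside 0.06 and -0.04 for all genes. Perturbed and control libraries did not overlap for 6 of 7 members in the CTNNB1 arm, where 43.2% of all genes did not overlap. Of the 6, 4 were lower and 2 higher, beside 13% and 30.2% of all genes. In the shAPC arm 3 members did not overlap, all lower, beside 40.9% of all genes, 26.4% lower and 14.5% higher.

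CA2 (ENSG00000104267, chromosome 8) encodes a fast cytosolic carbonic anhydrase that is abundant in surface colonocytes. It stood at 61.1, 57.9 and 51.7 TPM in the GFP libraries and at 28.6, 26.8 and 27.0 TPM in the CTNNB1 libraries. The lowest GFP library lay well above the highest CTNNB1 library. The mean fell by 51.7%, from 56.9 ± 4.8 to 27.5 ± 1.0 TPM (SD, n = 3 each), a log2 fold change of -1.02 (SE 0.07, limma adjusted p = 1.8e-05). In the hairpin arm the shNT1 libraries were at 44.7, 45.3 and 46.7 TPM and the shAPC libraries at 29.04, 26.6 and 27.6 TPM. Again no libraries overlapped, and the 3 control values lay within a narrow band. The mean fell by 39.1%, from 45.6 ± 1.1 to 27.7 ± 1.2 TPM, a log2 fold change of -0.70 (SE 0.06, limma adjusted p = 3.6e-05). In the authors' deposited tables the log2 fold changes of CA2 were -1.12 and -0.68. Its group means ran in the order GFP, shNT1, shAPC, CTNNB1, and only the last 2, the perturbed groups, overlapped.

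CA12 (ENSG00000074410, chr15:63321378-63382161, minus strand, GRCh38) encodes a membrane-bound enzyme with its active site outside the cell. Its GFP libraries were at 96.0, 94.9 and 98.5 TPM and its CTNNB1 libraries at 69.0, 66.8 and 64.8 TPM. The groups were far apart beside a spread of 1.8 TPM (SD) in GFP and 2.1 TPM in CTNNB1. The mean fell by 30.7%, a log2 fold change of -0.52 (SE 0.05, limma adjusted p = 7.4e-05). The shNT1 libraries were at 86.1, 93.9 and 99.3 TPM and the shAPC libraries at 55.1, 54.4 and 49.0 TPM. Here too all perturbed libraries lay below all controls, and the mean fell by 43.2%, a log2 fold change of -0.81 (SE 0.07, limma adjusted p = 4.5e-05). The control groups GFP and shNT1 overlapped, and shAPC was lower than CTNNB1 without overlap. The authors' deposited tables give -0.60 and -0.78 for CA12. Calls of lower in both arms were made for 3.24% of 11556 genes tested in both. CA2 and CA12 kept their calls in both arms in all 15 alternatives run, each left-out library included.

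Markers of absorptive, goblet, BEST4 and enteroendocrine cells were low, and some marker sums moved with the groups. Of 7 absorptive colonocyte markers 1, SLC26A2, averaged at least 1 TPM and 2 were at 0 in all 12 libraries. The sum of these markers was 5.55 to 6.21 TPM in the GFP libraries and 7.09 to 9.30 TPM in the CTNNB1 libraries, while shNT1 (9.85 to 10.3 TPM) and shAPC (9.40 to 10.6 TPM) overlapped. From GFP to CTNNB1 the mean of SLC26A2 went from 4.18 to 7.21 TPM and that of CA4 from 0 to 0.028 TPM. CEACAM7 (0.75 to 0.47 TPM) and GUCA2A (1.03 to 0.58 TPM) went the other way. From shNT1 to shAPC SLC26A2 went from 9.18 to 9.79 TPM and MS4A12 from 0 to 0.031 TPM. CEACAM7 (0.44 to 0.12 TPM), GUCA2A (0.37 to 0.25 TPM) and CA4 (0.097 to 0 TPM) were lower there. Of 6 goblet cell markers 2, SPINK4 and TFF3, averaged at least 1 TPM. The sum of the 6 was 10.2 to 16.6 TPM in shNT1 and 4.37 to 4.92 TPM in shAPC, while GFP (5.60 to 7.90 TPM) and CTNNB1 (5.56 to 6.84 TPM) overlapped. Most of the fall in shAPC was in SPINK4, from a mean of 8.65 to 0.44 TPM. TFF3 was at 3.59 and 3.48 TPM there, MUC2 at 0.70 and 0.25 and FCGBP at 0.93 and 0.44. None of the 4 markers of BEST4 cells and none of the 5 enteroendocrine markers averaged 1 TPM. The enteroendocrine sum was 0 to 0.034 TPM in GFP, 0.18 to 0.28 in CTNNB1, 0.27 to 0.57 in shNT1 and 0 to 0.070 in shAPC. In it 2 genes were at 0 in all 12 libraries, and its differences came mostly from SST alone. SST averaged 0 TPM in GFP, 0.23 in CTNNB1, 0.32 in shNT1 and 0 in shAPC. INSM1 averaged 0.021, 0.011, 0.053 and 0.028 TPM in the same order. The sum of the 9 colonic epithelial markers was 10976 to 11132 TPM in GFP and 12296 to 12385 TPM in CTNNB1. The sums of shNT1 (9263 to 10818 TPM) and shAPC (8902 to 9812 TPM) overlapped. KRT18, KRT8 and EPCAM made up most of the sum, with GFP means of 4704, 3376 and 1671 TPM. Of the 7 markers tested, CTNNB1 had 3 called higher and 1 lower, beside 16.3% and 7.16% of all genes. With shAPC 0 were called higher and 3 lower, beside 7.24% and 14.9% of all genes. LGALS4 averaged 748 TPM in GFP, 522 in CTNNB1, 951 in shNT1 and 623 in shAPC. KRT20 averaged 139, 138, 106 and 69.3 TPM in the same order. The part of these shifts, and of that in LYZ, in the changes of CA2, CA12 and SLC12A2 was not tested.

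CA13 (ENSG00000185015), a second cytosolic enzyme that lies close to CA2 on chromosome 8, was low in level and was not called in either arm. It averaged 7.60 ± 0.35 TPM in GFP and 6.81 ± 0.40 in CTNNB1, and 8.32 ± 0.47 in shNT1 and 7.18 ± 0.53 in shAPC (SD, n = 3 each). All perturbed libraries of CA13 lay below their controls, yet the log2 fold changes were -0.14 (95% confidence interval -0.31 to 0.03, limma adjusted p = 0.21) and -0.19 (-0.37 to -0.01, limma adjusted p = 0.12). Under quantile normalization CA13 passed in the CTNNB1 arm (-0.25, limma adjusted p = 0.029), and the authors' deposited table also gives it an adjusted p under the threshold there (0.036, log2 fold change -0.24).

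CA8 (ENSG00000178538) encodes a carbonic anhydrase-related protein that lacks catalytic activity. Its GFP libraries held 0.116, 0.0850 and 0.0925 TPM and its CTNNB1 libraries 0.0518, 0.0595 and 0.0312 TPM. The shNT1 libraries held 0.0971, 0.0837 and 0.0723 TPM and the shAPC libraries 0.0644, 0.0397 and 0.0704 TPM. Perturbed libraries were below controls without overlap in both arms, at levels too low for the filter. In the authors' deposited tables the log2 fold changes were -1.06 (adjusted p = 0.051) and -0.50 (adjusted p = 0.36), so neither passed.

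The carbonic anhydrase family was summed over its 15 genes in the list, a description chosen after values had been seen. The sum was 297 ± 2.6 TPM under GFP, 229.7 ± 6.7 under CTNNB1, 300.3 ± 5.3 under shNT1 and 206 ± 15 under shAPC (SD, n = 3 each). It fell below the controls in every perturbed library, by 22.7% and 31.5% of the mean. CA9, a membrane enzyme known for its induction by low oxygen, was the largest contributor, with 45.1% of the sum in GFP, 54.9% in CTNNB1, 50.2% in shNT1 and 55.3% in shAPC. CA2 gave 19.2%, 11.98%, 15.2% and 13.5% in the same order. CA9 itself was lower in shAPC, at 114 ± 12 against 151 ± 1.9 TPM (log2 fold change -0.40, limma adjusted p = 0.0037). With CTNNB1 it did not pass (-0.09, limma adjusted p = 0.35). Of the other 11 carbonic anhydrase genes on the list, 9 were below the filter. CA1 and CA4, which mark surface colonocytes, were among them, and CA1 was listed at 0 in all 12 libraries. CA4 was at 0.087 to 0.103 TPM in shNT1 and at 0 in every shAPC library, and averaged 0 TPM in GFP and 0.028 in CTNNB1. The authors' deposited limma tables give CA4 1.17 (adjusted p = 0.34) in the CTNNB1 arm and -2.85 (adjusted p = 0.0018) in the shAPC arm.

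**Figure D2:**
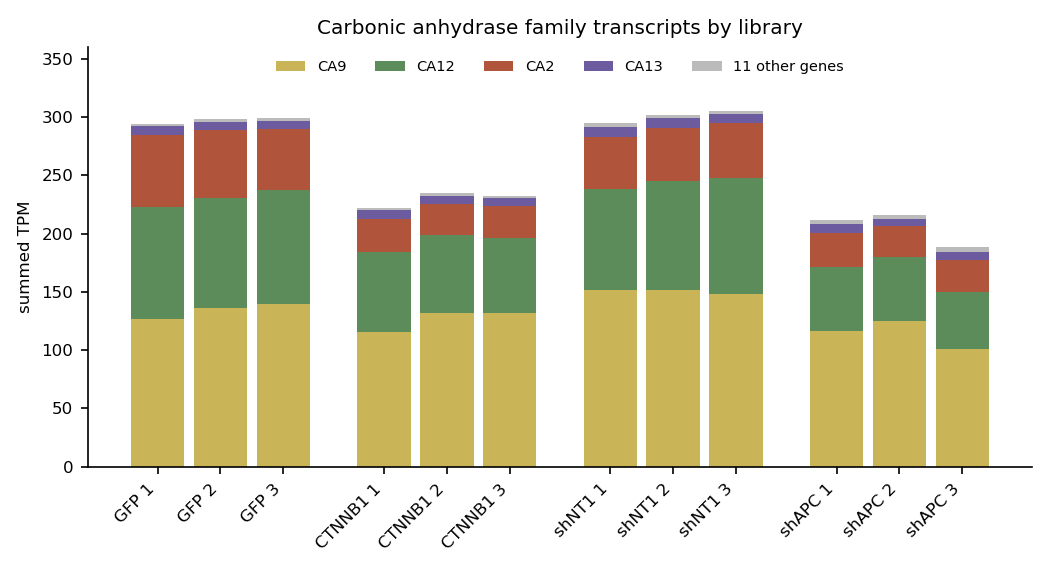
Summed TPM (linear axis from 0) of 15 carbonic anhydrase genes in each library, stacked by gene, with 11 low genes drawn together. The 3 CTNNB1 libraries reach 222 to 235 TPM and the 3 shAPC libraries 189 to 216 TPM, against 294 to 305 TPM in the 6 control libraries.

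Of the apical anion exchangers, SLC26A6 (ENSG00000225697, chr3:48625723-48635493, minus strand), which exchanges chloride for bicarbonate or oxalate, was expressed and not called. Its group means were 7.45 ± 0.57 TPM in GFP, 7.34 ± 0.88 in CTNNB1, 9.08 ± 1.3 in shNT1 and 7.91 ± 0.72 in shAPC (SD, n = 3 each), and neighbouring groups in this order of levels overlapped throughout. The log2 fold change was -0.02 (95% confidence interval -0.23 to 0.19, limma adjusted p = 0.89) in the CTNNB1 arm and -0.17 (-0.40 to 0.05, limma adjusted p = 0.25) in the shAPC arm. SLC26A3 (ENSG00000091138, chr7:107765467-107803225, minus strand) gave no basis for a comparison, being listed at 0 in every GFP, CTNNB1 and shAPC library.

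CFTR (ENSG00000001626, chr7:117465784-117715971, plus strand) encodes the cAMP-activated channel through which crypt cells release chloride and bicarbonate. The GFP libraries were at 86.5, 85.5 and 87.5 TPM and the CTNNB1 libraries at 125, 103 and 90.2 TPM. All CTNNB1 libraries were above all GFP libraries, but they spread widely, with an SD of 17 TPM against 0.98 TPM. The log2 fold change of 0.28 (SE 0.10, 95% confidence interval 0.06 to 0.49) was not called (limma adjusted p = 0.066). It passed without CTNNB1 replicate 3 (0.38, limma adjusted p = 0.0076) and in a single fit of the 4 groups (limma adjusted p = 0.032), and it was 0.15 without CTNNB1 replicate 1 (limma adjusted p = 0.062). In the hairpin arm CFTR stood at 113, 111 and 119 TPM in shNT1 and 128, 132 and 117 TPM in shAPC. The groups overlapped, and the log2 fold change was 0.13 (SE 0.06, 95% confidence interval 0.00 to 0.26, limma adjusted p = 0.13). Under median-ratio scaling it was 0.18 (limma adjusted p = 0.028) and under quantile normalization 0.22 (limma adjusted p = 0.012). The authors' deposited tables give CFTR 0.21 (adjusted p = 0.30) and 0.17 (adjusted p = 0.058).

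SLC12A2 (ENSG00000064651, chr5:128083766-128189688, plus strand) encodes the basolateral sodium-potassium-chloride cotransporter that loads crypt cells with chloride. It stood at 744, 732 and 736 TPM in GFP and at 1199, 1040 and 954 TPM in the CTNNB1 libraries. The 3 CTNNB1 libraries were the highest of all 12, and they spread far more than the GFP libraries. The mean rose from 737 ± 6.3 to 1065 ± 125 TPM, by 44.4%, a log2 fold change of 0.52 (SE 0.07, limma adjusted p = 8.0e-04). In the hairpin arm SLC12A2 was at 833, 832 and 908 TPM in shNT1 and 826, 916 and 791 TPM in shAPC. These groups overlapped, with a log2 fold change of -0.02 (95% confidence interval -0.17 to 0.12, limma adjusted p = 0.82). The group means ran CTNNB1, shNT1, shAPC, GFP, and only shNT1 and shAPC overlapped.

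SLC4A2 (ENSG00000164889, chr7:151057210-151076527, plus strand) encodes the AE2 exchanger, which takes chloride up across the basolateral membrane in exchange for bicarbonate. It was at 103, 103 and 111 TPM in GFP, at 81.2, 96.5 and 100.1 TPM in CTNNB1, at 84.7, 93.1 and 91.4 TPM in shNT1 and at 78.8, 85.2 and 75.4 TPM in shAPC. The CTNNB1 libraries lay below GFP without overlap, and the hairpin groups overlapped. Neither change was called, with log2 fold changes of -0.19 (95% confidence interval -0.36 to -0.02, limma adjusted p = 0.095) and -0.17 (-0.30 to -0.03, limma adjusted p = 0.079). Without CTNNB1 replicate 3 the first was called (-0.25, limma adjusted p = 0.039), and without replicate 1 it was -0.10. Exons of SLC4A2 overlap exons of CDK5 and an antisense gene, and those of CFTR overlap CTTNBP2 and CFTR-AS1 in GENCODE v29. The labels do not state whether the counting used strand, so reads of such pairs cannot be assigned with certainty. CDK5 had log2 fold changes of 0.10 and 0.35, opposite in sign to those of SLC4A2, and CTTNBP2 averaged at most 1.11 TPM in any group.

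CTNNB1 replicate 1 was the highest of its group for SLC12A2, CFTR, CA2, CA12 and CA13 and the lowest for SLC4A2 and SLC26A6. That library also had the steepest trend of level with transcript length among the 12, at 0.078 log2 units per doubling of length, where the others lay between -0.045 and 0.034. The longest GENCODE v29 transcript has 6885 nucleotides for SLC12A2, 6413 for CA12, 6132 for CFTR, 5682 for SLC26A6, 4925 for SLC4A2, 3815 for CA13 and 1717 for CA2. With the trend removed from every library, a setting chosen after seeing the data, the log2 fold change was 0.47 for SLC12A2 (limma adjusted p = 3.1e-04), 0.23 for CFTR (0.074) and -0.22 for SLC4A2 (0.065). Without CTNNB1 replicate 1 SLC12A2 rose by 0.43 (limma adjusted p = 1.1e-04).

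**Figure D3:**
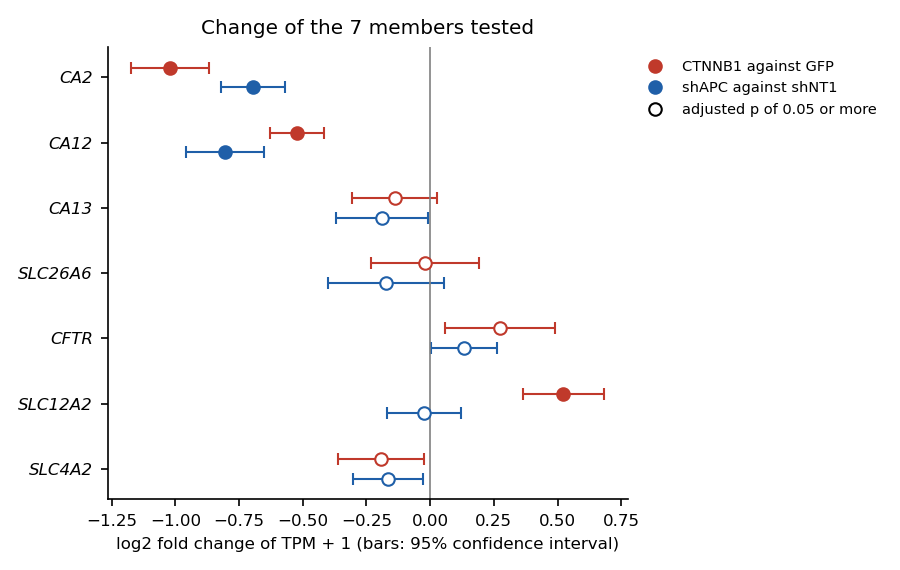
Log2 fold change of TPM + 1 (linear axis) for the 7 members tested, red for CTNNB1 against GFP and blue for shAPC against shNT1, with bars for the 95% confidence interval of limma and open points where the adjusted p was 0.05 or more. CA2 and CA12 lie left of 0 in both arms and SLC12A2 right of 0 in the CTNNB1 arm, at 0.52, with the shAPC value at -0.02.

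Whether the arms changed a member by different amounts was tested in a fit of all 12 libraries, with the shAPC effect subtracted from that of CTNNB1. There 3 of 7 members were called, 2 positive and 1 negative, against 16.1% of 11741 genes, 13.3% positive and 2.76% negative. Under median-ratio scaling 54.7% of the calls over all genes were positive, in place of 82.8%. The median difference over all genes was 0.11 and went to 0.00 under median-ratio scaling. SLC12A2 differed by 0.55 (SE 0.10, limma adjusted p = 0.0039) and kept that call in all 20 alternatives. CA2 fell further with CTNNB1 than with shAPC, a difference of -0.32 (SE 0.09, limma adjusted p = 0.025). CA12 fell less, a difference of 0.28 (SE 0.08, limma adjusted p = 0.035). The CA2 call was lost without GFP replicate 1 or 2, CTNNB1 replicate 2, shNT1 replicate 1 or shAPC replicate 3 (limma adjusted p from 0.051 to 0.070), and with the length trend removed (-0.24, limma adjusted p = 0.11). The CA12 call held in 6 of 20 alternatives, and under median-ratio scaling its difference was 0.17 (limma adjusted p = 0.10). Libraries whose omission ended it were every GFP library, CTNNB1 replicates 1 and 2, shNT1 replicates 2 and 3 and shAPC replicate 3 (limma adjusted p from 0.054 to 0.092).

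Genes whose profile over the 12 libraries lay closest to CA2 and CA12, the members called in both arms, were taken by the root mean square difference of centred log2(TPM + 1) among 9421 genes with a mean of at least 5 TPM. Libraries share their groups, so this is a description. Closest to CA2 were ANXA10 (0.084 log2 units), an annexin, SNCG (0.13), which encodes gamma-synuclein, and FXYD3 (0.15), which encodes a regulator of the sodium pump. The median over all candidates was 0.46. ANXA10 fell by 0.92 in the CTNNB1 arm and by 0.84 in the shAPC arm on the log2 scale. Closest to CA12 were FFAR4 (0.062), a receptor for long-chain fatty acids, SEMA4B (0.064), a membrane semaphorin, and BHLHE41 (0.074), a transcriptional repressor of the circadian system, beside a median of 0.36. BHLHE41 fell by 0.58 and 0.69 in the CTNNB1 and shAPC arms.

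Around the members, 80 further genes of carbonic anhydrase activity and colonic ion and water transport were read from the same fits. Of these, 42 were below the filter in each arm, among them the surface cell genes CA1, CA4, SLC9A3, AQP8, SLC5A8 and MS4A12, the guanylin genes GUCA2A and GUCA2B, and the epithelial sodium channel genes SCNN1B and SCNN1G. In the CTNNB1 arm 16 of the 38 tested were called, 10 higher and 6 lower, which is 42.1% beside 23.5% of all genes (16.3% higher and 7.16% lower). The median log2 fold change of the 38 was 0.01, beside 0.06 for all genes. Under median-ratio scaling 7 were higher and 8 lower. In the shAPC arm 21 of 38 were called, 6 higher and 15 lower, which is 55.3% beside 22.1% of all genes (7.24% higher and 14.9% lower), with a median of -0.16 beside -0.04. Both arms called 6 of them lower and 4 higher, beside 3.24% and 4.08% of all genes, and SLC4A4 was called in opposite directions.

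Genes of potassium channels and the sodium pump changed in both directions. KCNQ1 encodes a basolateral potassium channel and KCNE3 the subunit that holds it open in crypt cells, a pair that sustains chloride secretion. KCNE3 was at 58.4 ± 3.9 TPM with CTNNB1 against 32.6 ± 0.36 with GFP, and at 73.4 ± 2.6 TPM with shAPC against 40.8 ± 1.4 with shNT1 (SD, n = 3 each). Its log2 fold changes were 0.82 (SE 0.06, limma adjusted p = 2.4e-05) and 0.83 (SE 0.05, limma adjusted p = 9.3e-06). KCNQ1 rose in both arms too, with means of 9.01 and 15.4 TPM (log2 fold change 0.71) and of 12.03 and 17.7 TPM (0.52). KCNN4, a calcium-gated potassium channel gene, rose in shAPC from 1.87 to 4.02 TPM (0.81, limma adjusted p = 0.0022), while its change with CTNNB1 missed the threshold (0.23, limma adjusted p = 0.26). KCNK5, a further potassium channel gene that is named after its values were seen, was called lower in both arms. It went from 13.1 to 10.5 TPM (-0.30) with CTNNB1 and from 9.35 to 5.98 TPM (-0.57) with shAPC. Its call in the CTNNB1 arm was lost without GFP replicate 3 (limma adjusted p = 0.0505). FXYD3 fell in both arms, from 18.7 ± 1.1 to 9.22 ± 1.1 TPM (-0.95) and from 16.7 ± 0.33 to 9.27 ± 0.75 TPM (-0.79). ATP1B1, the beta subunit of the sodium pump, fell from 839 ± 8.0 to 669 ± 44 TPM (-0.33) and from 904 ± 49 to 435 ± 21 TPM (-1.05). That fall was larger in the shAPC arm (difference 0.72, SE 0.08, limma adjusted p = 8.9e-05). In this group of 13 genes 9 were tested, of which 3 were higher and 3 lower in the CTNNB1 arm and 3 higher and 5 lower in the shAPC arm, beside 16.3% and 7.16% of all genes in the first and 7.24% and 14.9% in the second.

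The water channel genes AQP3 and AQP1 rose in both arms. AQP3, a basolateral channel for water and glycerol, went from 41.1 ± 2.3 to 124 ± 4.7 TPM with CTNNB1 (log2 fold change 1.57, SE 0.06, limma adjusted p = 5.7e-07) and from 92.2 ± 3.7 to 139 ± 15 TPM with shAPC (0.59, SE 0.08, limma adjusted p = 6.2e-04). GFP was the lowest of the 4 groups for AQP3. AQP1 was near 1 TPM in both controls and rose to 1.68 and 1.67 TPM (0.41 and 0.47 on the log2 scale). The AQP1 call in the CTNNB1 arm was lost without any 1 of GFP replicates 1 and 3 and CTNNB1 replicates 1 and 2 (limma adjusted p from 0.070 to 0.12), and that in the shAPC arm without shNT1 replicate 1 or shAPC replicate 2 or 3 (0.052 to 0.058). In the CTNNB1 arm AQP1 also missed the threshold under median-ratio scaling (0.37, limma adjusted p = 0.056), quantile normalization (0.29, limma adjusted p = 0.14) and without the filter (limma adjusted p = 0.052). Of 7 genes in this group 4 were tested, and no member fell by the test in either arm.

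ANO1, a calcium-gated chloride channel gene, fell in both arms, from 77.4 ± 2.4 to 66.0 ± 3.5 TPM (-0.23, limma adjusted p = 0.016) and from 84.7 ± 5.1 to 51.6 ± 3.2 TPM (-0.70, limma adjusted p = 7.5e-05). Its call in the first was lost without GFP replicate 2 or 3 (limma adjusted p of 0.059 and 0.073). CLCN2, another chloride channel gene, was called in the shAPC arm, from 12.7 to 9.24 TPM (-0.41, limma adjusted p = 0.029). That call was lost without shNT1 replicate 3 or any 1 shAPC library (limma adjusted p from 0.054 to 0.11), without the filter (0.11) and without the variance trend (0.051). Of 10 genes in this group 3 were tested.

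Of 9 genes tested among the other SLC12 cotransporters and the kinases that regulate them, 4 were called lower in the shAPC arm, SLC12A8 and the kinase genes WNK4, OXSR1 and STK39, and none higher. In the CTNNB1 arm 1 was called higher and 1 lower. That is 22.2% of the 9, near the 23.5% of all genes (16.3% higher and 7.16% lower). With shAPC the share was 44.4%, beside 22.1% of all genes (7.24% higher and 14.9% lower). WNK4, OXSR1 and STK39 went from 6.14 to 4.39 TPM (-0.40), from 36.0 to 27.9 TPM (-0.36) and from 264 to 213 TPM (-0.31). WNK1, another kinase gene of this cascade that is named after its values were seen, was not called, at 55.0 ± 3.4 TPM in shNT1 and 50.3 ± 3.3 TPM in shAPC (-0.13, limma adjusted p = 0.20). None of WNK4, OXSR1 and STK39 was called in the CTNNB1 arm, where their log2 fold changes were 0.08, 0.13 and 0.16, and these 3 differed between the arms (differences of 0.49, 0.49 and 0.47), although that of WNK4 was not called without GFP replicate 1 or 2 or shAPC replicate 3 (limma adjusted p from 0.051 to 0.058). SLC12A4, a potassium-chloride cotransporter gene, was called higher in the CTNNB1 arm (0.29, limma adjusted p = 0.042), and SLC12A8 lower in both arms (-0.19 and -0.39). The SLC12A4 call was lost without GFP replicate 1, 2 or 3 or CTNNB1 replicate 2 (limma adjusted p from 0.089 to 0.16), as was that of SLC12A8 in the CTNNB1 arm (0.087 to 0.14). SLC12A4 also missed it under median-ratio scaling (0.23, limma adjusted p = 0.081), quantile normalization (0.17, limma adjusted p = 0.17) and without the filter (limma adjusted p = 0.076), and SLC12A8 in a single fit of the 4 groups (limma adjusted p = 0.091). In the shAPC arm SLC12A8 was not called without shAPC replicate 1 or 3 or without the filter (limma adjusted p from 0.056 to 0.060).

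Among the other bicarbonate and anion transporters, SLC4A4, the basolateral sodium-bicarbonate cotransporter gene, rose from 15.3 ± 0.55 to 19.4 ± 2.6 TPM with CTNNB1 (0.32, limma adjusted p = 0.029) and fell from 19.2 ± 0.38 to 15.2 ± 1.0 TPM with shAPC (-0.32, limma adjusted p = 0.0075). The rise was not called without GFP replicate 1, 2 or 3 or CTNNB1 replicate 2 (limma adjusted p from 0.053 to 0.096), under quantile normalization (0.051) or without the filter (0.080). SLC26A2, a sulfate transporter gene, rose from 4.18 to 7.21 TPM with CTNNB1 (0.65, limma adjusted p = 0.0067), and SLC4A11 from 1.49 to 2.74 TPM (0.58, limma adjusted p = 0.0044). Neither was called in the shAPC arm, where the values were 0.08 and 0.14. Of the scaffolds that hold sodium/proton exchangers at the apical membrane, SLC9A3R2 fell in both arms (-0.31 and -0.33), SLC9A3R1 in the shAPC arm (-0.28, limma adjusted p = 0.0084), and PDZK1 was higher with CTNNB1 (0.46, limma adjusted p = 0.021). The call of SLC9A3R2 in the CTNNB1 arm was lost without GFP replicate 2 or 3 (limma adjusted p of 0.070 and 0.067) and that of PDZK1 without GFP replicate 1 or 3 (0.080 and 0.061) and under quantile normalization (0.076). Without the filter neither passed (0.052 and 0.056). CA5B, a mitochondrial carbonic anhydrase gene, was higher in shAPC (1.38 to 2.08 TPM, 0.38, limma adjusted p = 0.047), a call lost without shNT1 replicate 2 or 3 or any 1 shAPC library (0.085 to 0.14), under quantile normalization (0.087), with a pseudocount of 0.1 (0.054) and without the filter (0.058).

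**Figure D4:**
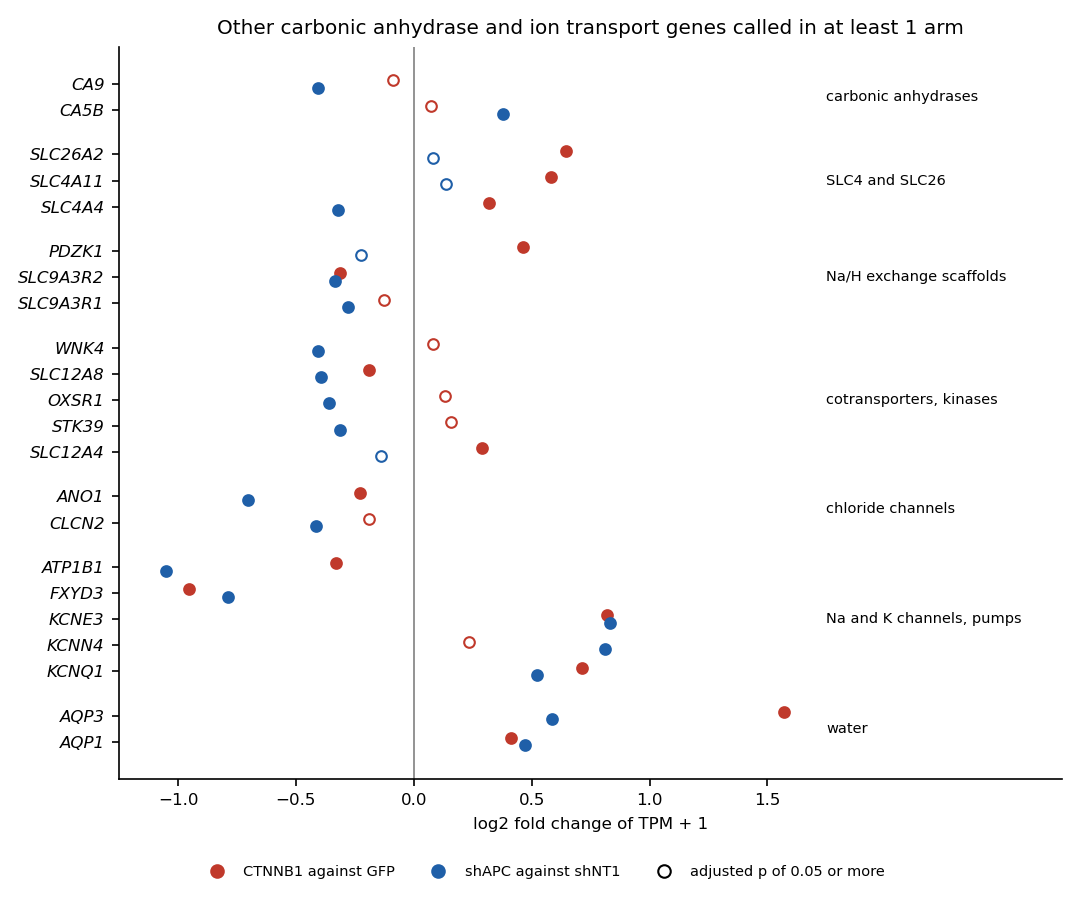
Log2 fold change of TPM + 1 (linear axis) for the 22 other carbonic anhydrase and transport genes named by rule, red for CTNNB1 against GFP, blue for shAPC against shNT1 and open where the adjusted p was 0.05 or more. KCNE3, KCNQ1, AQP1 and AQP3 lie right of 0 in both arms, while FXYD3, ATP1B1, ANO1, SLC12A8 and SLC9A3R2 lie left of 0 in both.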

How the data were processed

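RNA was measured in 12 HT-29 libraries. The deposited TPM table comes from the authors, and the submitters' processing notes name STAR 2.7.3a, limma and build hg38. The quantification tool, annotation and filters are not given in the sources used here. Each comparison also has a results table by the authors with log2 fold changes, mean log2 expression, p-values and adjusted p-values. Per the file headers those tables hold a t statistic and a B score too, which were not used.

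Here limma 3.58.1 (R 4.3.3) was run on each arm alone, on log2(TPM + 1), with a mean-variance trend, for genes with a mean of at least 1 TPM over the libraries of the fit. Adding 1 understates fold changes of low genes. Calls are at a Benjamini-Hochberg adjusted p under 0.05 over all genes tested. The difference between arms used all 12 libraries. The fits were tested on simulated data. No per-sample column was left unused.

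The members and lists were chosen with earlier results of these data known. All members are named. From each of 7 groups of pathway genes the text names those called in an arm, at most the 5 with the largest change. Named besides are genes below the filter, the 3 check genes, and WNK1 and KCNK5, which were added after values had been seen. Positions and transcript lengths come from GENCODE v29 (GRCh38). Alternatives were a pseudocount of 0.1, no filter, at least 5 TPM, median-ratio scaling, quantile normalization, no variance trend, a replicate block, a single fit of 4 groups and leaving out each library. Removal of the length trend was added after seeing the data.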

Additional observations from a re-analysis of the deposited data

Results flagged for a closer look

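The effect of CTNNB1 differed from that of shAPC, by the contrast between the arms in limma, for 3 members and 10 further transport genes. The values are the CTNNB1 effect minus the shAPC effect on the log2 scale. Among the members SLC12A2 differed by 0.55, CA12 by 0.28 and CA2 by -0.32. Among the genes around them AQP3 differed by 0.98, ATP1B1 by 0.72, PDZK1 by 0.69, SLC4A4 by 0.64, SLC26A2 by 0.56, OXSR1 by 0.49, WNK4 by 0.49, ANO1 by 0.48, STK39 by 0.47 and SLC12A4 by 0.43. All 10 of the latter were positive, beside 13.3% of all genes with a positive and 2.76% with a negative call in this contrast. Under median-ratio scaling 9 of the pathway genes were called, 8 positive and 1 negative. The calls of SLC12A4, SLC26A2, WNK4, CA2 and CA12 were each lost when some single libraries were left out. Under median-ratio scaling and quantile normalization the differences of SLC26A2 (0.47 and 0.41), SLC12A4 (0.34 and 0.33) and CA12 (0.17 and 0.21) missed the threshold. In these differences the perturbation cannot be told apart from the vector, the doxycycline or the day.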

How the results depend on the processing

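The falls of CA2 and CA12 in both arms and the rise of SLC12A2 in the CTNNB1 arm kept their direction and their call in all 15 alternatives of each. No depth is known, so no detection floor can be given for CA8 or SLC26A3. Signs of a pairing by replicate number were seen in the CTNNB1 arm and not in the shAPC arm. Same-numbered libraries deviated together at correlations from 0.076 to 0.21 in the CTNNB1 arm and from -0.21 to 0.0025 in the shAPC arm. The mean was 0.14 in the first and -0.12 in the second. For different numbers it was -0.067 and 0.058. Deviations were taken from the mean of each group of 3 libraries, which ties the mean for different numbers to that for same numbers. The values for different numbers are therefore no separate evidence of pairing. Of 6 libraries, 5 in the CTNNB1 arm and 1 in the shAPC arm correlated best with their own number. With the replicate block 5 members were called in the CTNNB1 arm, CFTR (limma adjusted p = 0.038) and SLC4A2 (0.040) being added, and 2 in the shAPC arm. In that fit 2895 and 1767 genes were called in all, and 1145 in the difference between the arms, against 1885 without the block. With the length trend removed, 1 member, SLC12A2, differed between the arms.

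Leaving out each library in turn gave 1499 to 3190 calls over all genes in the CTNNB1 arm, with 1617, 1499 and 1705 without GFP replicate 1, 2 and 3 and 1760 without CTNNB1 replicate 2. In the shAPC arm it gave 1484 to 2252, with 1646 and 1484 without shAPC replicate 2 and 3. The difference had 995 to 2143, with 1092 and 995 without GFP replicate 1 and 2 and 1246 and 1021 without shAPC replicate 2 and 3. Members called went from 3 to 5 in the CTNNB1 arm, 5 being without CTNNB1 replicate 3, and from 1 to 3 in the difference, 1 being without GFP replicate 1 or 2, CTNNB1 replicate 2 or shAPC replicate 3. Pathway genes called in the CTNNB1 arm went from 7 to 18, with 10, 10 and 7 without GFP replicate 1, 2 and 3. The sign of some uncalled values changed. SLC26A6 in the CTNNB1 arm ranged from -0.10 to 0.053 over the left-out libraries, SLC12A2 in the shAPC arm from -0.085 to 0.022 and SLC4A2 in the difference from -0.084 to 0.065. With median-ratio scaling and quantile normalization SLC12A2 in the shAPC arm was 0.019 and 0.028, and the CA13 difference -0.050 and -0.040. The cause of these changes was not tested.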
